A study of Rattus norvegicus with 24 samples.

Results

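Potassium channel genes were followed by mRNA sequencing in 2 brain regions of adult male Sprague-Dawley rats, the perilesional cortex and the ipsilateral thalamus, 3 months after surgery. A gene was a member if its deposited name was Kcn, then a letter code for the subfamily, then a number, with Kcnj13 left out as a gene of the choroid plexus, and this gave 91 of 25650 named genes. Where a name had several loci, which was so for 5 members, the locus with the highest mean over the 24 libraries was kept. The 6 rats with traumatic brain injury (TBI) had received a lateral fluid-percussion injury, in which a pressure pulse of saline strikes the dura through an opening in the skull. The 6 sham-operated rats underwent the same anesthesia and surgery without the impact, so the craniectomy was common to all 4 groups of 6 libraries. The study's methods limit the groups in 2 ways. The injured rats were picked for a prominent T2-weighted MRI signal around the lesion, and each library came from pooled small pieces of a dissected region. The region labels were checked against marker genes in the sham-operated rats. All 8 of 8 thalamic identity genes were higher in the thalamus and 6 of 7 cortical ones were higher in the cortex, with limma adjusted p under 0.05.

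Potassium channels let potassium leave or enter the cell and so set the resting potential, the shape of the action potential and the rate of firing. Pores of the voltage-gated families open when the membrane is depolarized, electrically silent subunits only modify such pores, and accessory subunits bind them and change their traffic or gating. Calcium- and sodium-activated channels answer to ions inside the cell, inward rectifiers include the channels by which astrocytes take up potassium and those opened by G proteins, and two-pore channels carry leak currents. The members comprised 30 genes of voltage-gated pores, 10 of electrically silent subunits, 11 of accessory subunits, 12 of calcium- or sodium-activated channels and their beta subunits, 14 of inward rectifiers and 14 of two-pore channels.

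The deposited values, called normalized counts here, are fragment counts scaled by the authors with 1 size factor per library, and the libraries held 30568927 to 54608922 fragments. Genes were not compared with each other in level, because the files give no transcript lengths. TBI and sham-operated rats were compared by limma on log2(normalized count + 1) over all named loci with a mean of at least 10, and a gene was called at a Benjamini-Hochberg adjusted p under 0.05. Log2 changes are TBI minus sham and understate the change of genes with few counts. Of the 91 members, 82 passed the minimum in the cortex and 80 in the thalamus. The 9 that passed in neither were Kcna7, Kcna10, Kcne1, Kcnj1, Kcnk7, Kcnk18, Kcnmb3, Kcnu1 and Kcnv2, whose highest value in any library was 20.0 normalized counts, in Kcnv2. Kcng3 and Kcnj15 passed in the cortex alone. Among others, Kcnj14 and Kcnma1 stand in the annotation as loci joined with another gene, so their values include the fragments of that gene.

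Most members that changed were lower in TBI rats, in both regions. In the perilesional cortex 43 of the 82 tested members fell and 5 rose, where 14.9% of all 15493 tested loci fell and 14.3% rose. In the ipsilateral thalamus 43 of 80 fell and 4 rose, where 20.9% of 15564 loci fell and 14.5% rose. The median log2 change of the members was -0.24 in the cortex and -0.32 in the thalamus, and that of all tested loci was -0.01 and -0.02. All 6 TBI rats lay below all 6 sham-operated rats for 17 members in the cortex and for 27 in the thalamus, a separation that 5.45% and 10.7% of all tested loci showed. The opposite separation held for 3 members in the cortex and 1 in the thalamus, against 7.02% and 7.46% of all tested loci. Both regions shared 33 of the falls, and Kcnn4 rose in both. Another 10 members passed the test as lower in the cortex and not in the thalamus, and 10 in the thalamus and not in the cortex, which does not show a difference between regions. A further 19 passed in neither region, and 0 passed in opposite directions. The overlap between regions was not counted over all loci, so these counts do not show a pattern particular to channel genes.

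**Figure D1:**
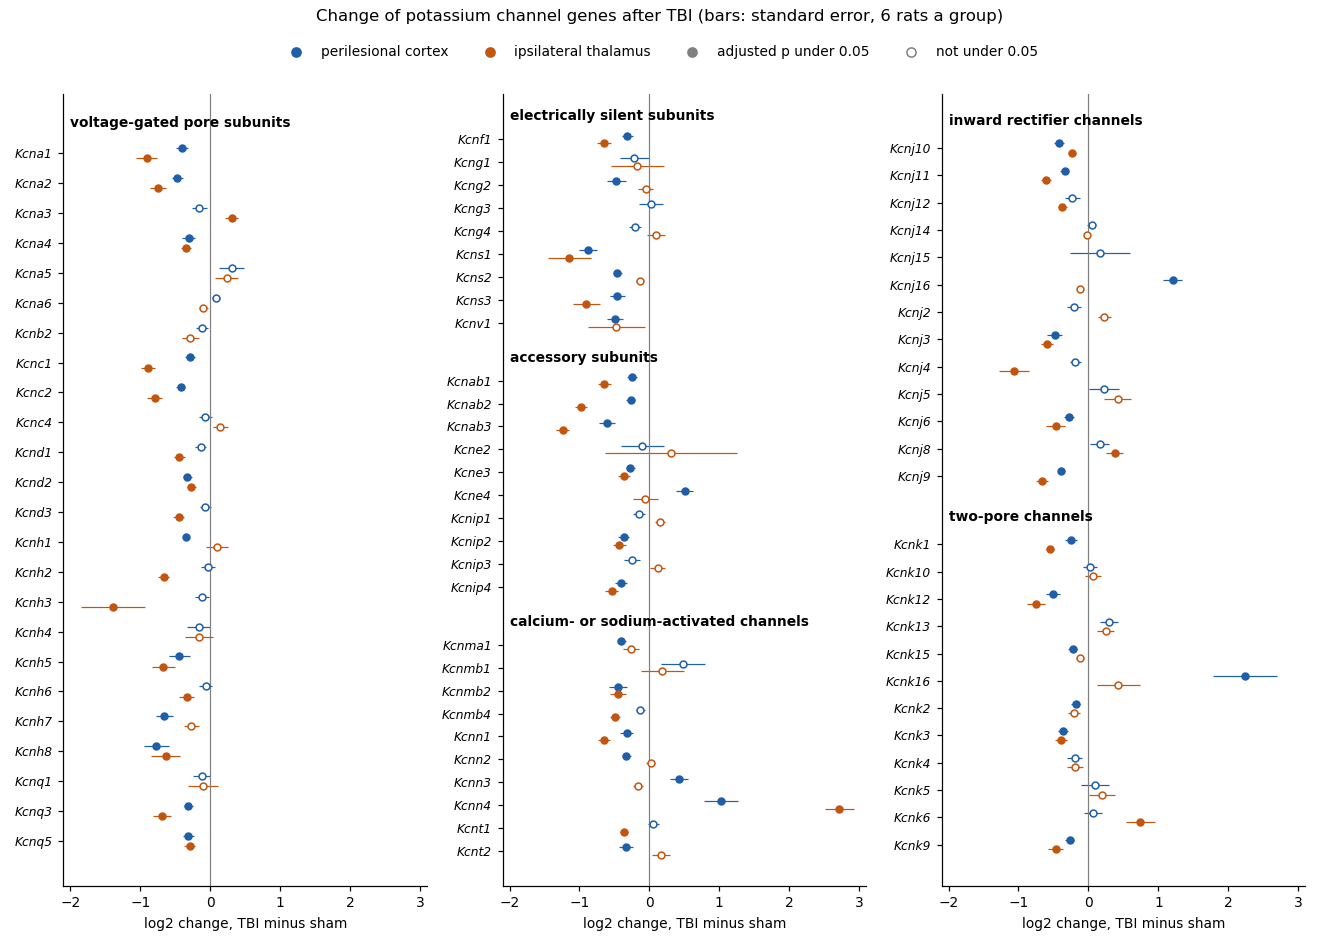
The log2 change of the tested members that are reported by name (horizontal axis, TBI minus sham) is shown by role for the perilesional cortex (blue) and the ipsilateral thalamus (orange), with bars for the standard error and filled points for an adjusted p under 0.05. Most filled points lie left of 0, and Kcnk16, Kcnj16 and Kcnn4 lie farthest to the right, at 2.24 and 1.21 in the cortex and 2.72 in the thalamus.

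The tissue itself differed between the groups, and these values stand beside every fall and rise that follows. Of 14 neuronal markers 10 fell in the cortex (median log2 change -0.29) and 12 in the thalamus (-0.48), and their summed level went from 458544 to 485721 normalized counts in sham cortex, 333522 to 425618 in TBI cortex, 314390 to 376449 in sham thalamus and 209797 to 259709 in TBI thalamus. Of 6 markers of inhibitory neurons 3 fell in the cortex and 5 in the thalamus, among them Pvalb at -1.19, and their sum was 22932 to 41246 in sham thalamus and 6660 to 17503 in TBI thalamus. Microglial markers rose for 13 of 14 genes in the cortex and 14 of 14 in the thalamus. In such bulk tissue fewer cells of a type and less RNA per cell cannot be told apart, and the part of these shifts in the changes of channel genes was not tested. Choroid plexus markers were far more abundant in a few libraries of both groups, called choroid-rich here, namely cortex of sham rats 26 and 34 and TBI rat 45, and thalamus of sham rats 34 and 50 and TBI rat 45. Without these libraries 30 members were called in the cortex instead of 48 and 43 in the thalamus instead of 47, with 30 and 41 of the calls in common, a comparison chosen after the data were seen and made on fewer samples per group. The 18 cortical calls lost included those of Kcna1, Kcna4, Kcnab1, Kcnab2, Kcne4, Kcng2, Kcnh5, Kcnh8, Kcnk1, Kcnk2, Kcnk15, Kcnn1, Kcnn3, Kcnq5, Kcns3 and Kcnt2, and the 6 thalamic ones included those of Kcna3, Kcnh6, Kcnk6 and Kcns1.

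Most Kv1 pores are delayed rectifiers of axons and their terminals. Kcna1 and Kcna2, which sit together beside the nodes of myelinated axons, fell in both regions. Cortical Kcna1 ran from 10574 to 12933 normalized counts (median 12088) in sham-operated rats and from 7367 to 10637 (9619.9) in TBI rats. One TBI rat reached into the sham range, and the log2 change was -0.40 (SE 0.09, limma adjusted p = 0.00412), a call that was lost without the choroid-rich libraries (-0.29, limma adjusted p = 0.0599). Thalamic Kcna1 ran from 11465 to 18472 normalized counts (median 14705) in sham-operated rats and from 5377 to 9726 (7856) in TBI rats, without overlap, a log2 change of -0.91 (SE 0.15, limma adjusted p = 0.000298). Kcna2 ran from 18668 to 22369.6 normalized counts (median 19941) in sham-operated rats and from 11873 to 16965 (14602) in TBI rats, and every TBI cortex lay below every sham cortex. The log2 change of Kcna2 was -0.47 (SE 0.08, limma adjusted p = 0.000662) in the cortex and -0.75 (SE 0.12, limma adjusted p = 0.000237) in the thalamus, where it ran from 15480.5 to 23182 normalized counts (median 19648) in sham-operated rats and from 9340.2 to 14164 (11490.3) in TBI rats, again without overlap. Kcna4, a rapidly inactivating pore, fell in both regions (-0.31 and -0.35), and its cortical call was lost under upper quartile scaling, without the choroid-rich libraries and without any of sham rats 38 and 50 or TBI rats 22 and 52 (-0.24 to -0.35). Kcna5 and Kcna6 passed the test in neither.

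Kcna3, a pore known from lymphocytes and microglia as well as from neurons, was 1 of the 4 members that rose in the thalamus. It ran from 1074 to 1622 normalized counts (median 1509) in sham-operated rats and from 1574 to 1956 (1761) in TBI rats, so 5 of 6 TBI rats exceeded the whole sham group and the log2 change was 0.30 (SE 0.09, limma adjusted p = 0.0206). Without the choroid-rich libraries the change was 0.29 with a limma adjusted p of 0.0771. In the cortex its log2 change was -0.16 (SE 0.10, limma adjusted p = 0.267). Of 6 T lymphocyte markers Cd4, which microglia also carry, was the only one tested in the thalamus and rose by 1.78, while the other 5 held at most 22.0 normalized counts in any thalamic library (Cd8a in TBI rat 56), and the part of either cell type in the rise of Kcna3 was not tested. Kcna3 and Kcna2 lie next to each other, 52494 bases apart by the deposited positions, and their thalamic calls went in opposite directions. Their promoters are printed from RefSeq because the neighbours differ. Each runs from 250 bases before to 50 after the start of the gene on GRCr8, with GC boxes (GGGCGG) and CCAAT boxes (CCAAT) of either strand in capitals, Kcna2 at chr2:197393280-197393579 (+ strand) and Kcna3 at chr2:197320074-197320373 (+ strand).
Kcna2: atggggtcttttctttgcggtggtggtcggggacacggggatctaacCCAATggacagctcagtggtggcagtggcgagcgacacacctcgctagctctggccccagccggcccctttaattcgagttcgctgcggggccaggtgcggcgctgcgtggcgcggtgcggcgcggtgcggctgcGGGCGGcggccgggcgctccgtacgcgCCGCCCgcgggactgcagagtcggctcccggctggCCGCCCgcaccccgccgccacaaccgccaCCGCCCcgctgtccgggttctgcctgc
Kcna3: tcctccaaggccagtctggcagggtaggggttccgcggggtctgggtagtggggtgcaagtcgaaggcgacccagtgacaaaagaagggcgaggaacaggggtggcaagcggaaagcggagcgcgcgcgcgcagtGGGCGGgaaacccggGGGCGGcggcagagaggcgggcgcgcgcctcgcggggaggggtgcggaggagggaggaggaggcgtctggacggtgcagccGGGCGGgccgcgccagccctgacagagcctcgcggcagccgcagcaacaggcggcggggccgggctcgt
The Kcna2 window held 4 GC boxes, 1 CCAAT box and 40 CG dinucleotides, and the Kcna3 window 3 GC boxes, 0 CCAAT boxes and 36 CG dinucleotides.

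Kcnb2, a delayed rectifier of the Kv2 subfamily, passed in neither region.

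Kv3 channels, which close fast and let neurons fire at high rates, showed some of the largest falls of the thalamus. Kcnc1 ran from 5730.2 to 7337 normalized counts (median 6266) in sham-operated rats and from 2643 to 4234 (3513) in TBI rats, a log2 change of -0.89 (SE 0.10, limma adjusted p = 1.41e-05). Kcnc2 ran from 25364 to 36597 normalized counts (median 29294) in sham-operated rats and from 13826 to 20232 (17022) in TBI rats (-0.80, SE 0.11, limma adjusted p = 8.68e-05). For both genes every TBI thalamus lay below every sham thalamus. They also fell in the cortex, with log2 changes of -0.29 (SE 0.07, limma adjusted p = 0.006) for Kcnc1 and -0.42 (SE 0.07, limma adjusted p = 0.00036) for Kcnc2. Kcnc4, the A-type member of the subfamily, passed in neither region. Parvalbumin-containing cells are a known site of Kv3 channels, and Pvalb fell by 0.51 in the cortex and 1.19 in the thalamus, and the part of these cells in the falls was not tested.

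**Figure D2:**
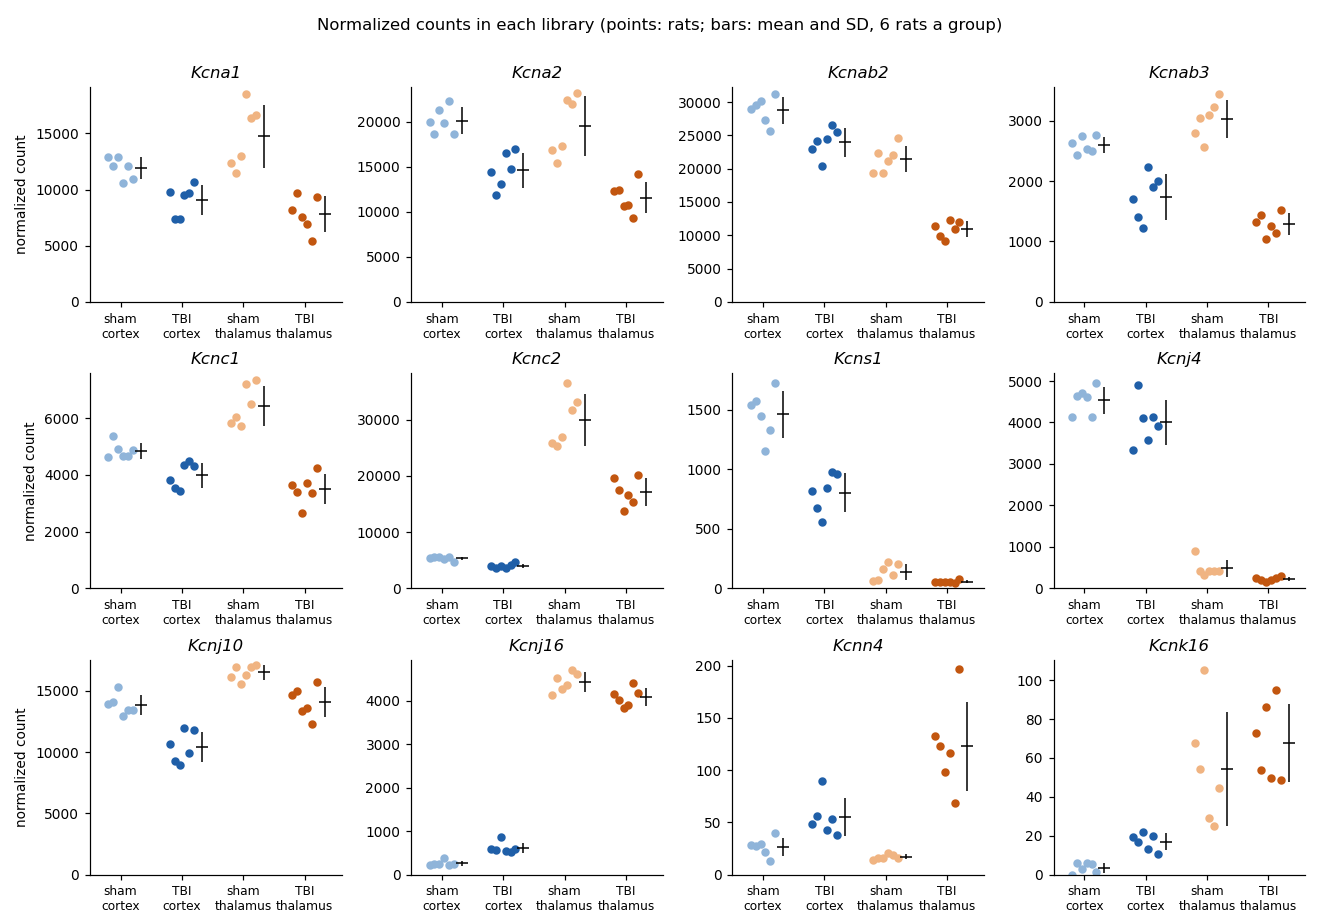
Normalized counts (vertical axes, from 0) of 12 members are shown for each rat in sham and TBI cortex and thalamus, with the mean and SD of 6 rats beside the points. The TBI thalamus lies wholly below the sham thalamus for Kcna1, Kcna2, Kcnab2, Kcnab3, Kcnc1, Kcnc2 and Kcnj4, Kcnj16 and Kcnk16 are raised in TBI cortex, and Kcnn4 is raised most in TBI thalamus, at 68.1 to 196.

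Kv4 pores carry the transient current of dendrites. Kcnd2 ran from 3958 to 4589 normalized counts (median 4199.8) in sham-operated rats and from 3065 to 4006 (3282) in TBI rats in the cortex (-0.33, SE 0.06, limma adjusted p = 0.00154) and ran from 6914 to 9283 normalized counts (median 8043) in sham-operated rats and from 6063 to 7043 (6698) in TBI rats in the thalamus (-0.27, SE 0.07, limma adjusted p = 0.00565). In each region 5 of 6 TBI rats lay below the sham range. Kcnd3 ran from 5823 to 7715 normalized counts (median 6810.2) in sham-operated rats and from 4472 to 5381 (4930.0) in TBI rats in the thalamus, with no overlap, and fell there by 0.45 on the log2 scale (limma adjusted p = 0.000596), while its cortical change was -0.07 (SE 0.08, limma adjusted p = 0.558). Kcnd1 fell in the thalamus (-0.44) and did not pass in the cortex (-0.14).

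Several pores of the ether-a-go-go group passed the test in 1 region, and the difference between regions passed for Kcnh2. Kcnh7, an Erg channel, ran from 6969 to 9494 normalized counts (median 7939) in sham-operated rats and from 3506 to 6462 (5343) in TBI rats in the cortex, with no overlap, a log2 change of -0.66 (SE 0.12, limma adjusted p = 0.0011). Its thalamic change was -0.27 (SE 0.11, limma adjusted p = 0.059). Kcnh1, the founding Eag pore, fell in the cortex without overlap (-0.35) and had a change of 0.09 in the thalamus that did not pass. Kcnh2, the Erg channel best known from the heart, ran from 4015 to 4611 normalized counts (median 4141) in sham-operated rats and from 2309.6 to 3308 (2646) in TBI rats in the thalamus, a fall without overlap (-0.66, SE 0.08, limma adjusted p = 2.84e-05), against -0.04 (SE 0.10, limma adjusted p = 0.816) in the cortex. Kcnh3 had the lowest value of all tested thalamic members, -1.40 (SE 0.46, limma adjusted p = 0.0281), on few counts. It ran from 39.6 to 224 normalized counts (median 81.2) in sham-operated rats and from 15.9 to 83.3 (26.7) in TBI rats, with 2 of 6 TBI rats inside the sham range, and without any of sham rats 26, 32 and 38 or TBI rats 24, 52 and 63 the call was lost (changes of -1.11 to -1.34). Kcnh5, a further Eag pore, fell in both regions (-0.45 and -0.67), but its cortical call was lost in 10 of 21 alternatives, among them edgeR, upper quartile scaling and the omission of any of sham rats 26, 32, 34, 38 and 50 or TBI rat 45 (-0.37 to -0.47). Kcnh8, an Elk pore, fell in both regions as well (-0.77 and -0.64), and its thalamic call was lost without any of sham rats 38, 50 and 55 or TBI rats 22, 52, 56 and 63 (-0.55 to -0.61). Cortical Kcnh8 held few counts, 25.7 to 43.4 in sham-operated rats and 17.1 to 28.3 in TBI rats. There 4 of 6 TBI rats lay below the sham range, and the gene was not tested at a minimum mean of 50. Kcnh6, another Erg gene, passed in the thalamus (-0.34) and not in the cortex (-0.07), with an interaction that did not pass (limma adjusted p = 0.244). That thalamic call was lost under upper quartile scaling, with edgeR, without the choroid-rich libraries and without any of sham rats 50 and 55 or TBI rat 22 (-0.25 to -0.33). Kcnh4 passed in neither.

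Kcnq3 is a subunit of the M-current, a slow brake on repetitive firing. Kcnq3 ran from 10818 to 13513 normalized counts (median 11529) in sham-operated rats and from 7885 to 10584 (9519) in TBI rats in the cortex, without overlap (-0.31, SE 0.07, limma adjusted p = 0.0044), and fell by 0.69 in the thalamus (limma adjusted p = 0.00118), where 5 of 6 TBI rats lay below the sham range. Kcnq5, another neuronal subunit, fell in both regions (-0.32 and -0.30), and Kcnq1, known from heart and epithelia, in neither. Over all voltage-gated pores 15 of 28 fell in the cortex with 0 rises, where 14.9% of all tested loci fell and 14.3% rose. In the thalamus 19 of 28 fell with 1 rise, that of Kcna3, where 20.9% of all tested loci fell and 14.5% rose.

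Electrically silent subunits do not form channels alone and mostly join Kv2 pores. In the cortex 6 of 9 fell, against 14.9% of all tested loci. The median log2 change of these subunits there, -0.46, was the lowest of the 6 roles. Kcns1 ran from 1152 to 1719 normalized counts (median 1493) in sham-operated rats and from 558 to 976 (828.9) in TBI rats in the cortex with no overlap, the largest fall among cortical members with separated groups (-0.88, SE 0.13, limma adjusted p = 0.000228). Kcns2 ran from 1841 to 2363 normalized counts (median 2025) in sham-operated rats and from 1327 to 1652 (1533) in TBI rats, also without overlap (-0.46, SE 0.07, limma adjusted p = 0.000186), and its thalamic change was -0.13 (SE 0.06, limma adjusted p = 0.0986). Kcns3 ran from 573 to 775 normalized counts (median 692) in sham-operated rats and from 390.1 to 620.2 (507) in TBI rats in the cortex (-0.46, SE 0.10, limma adjusted p = 0.00441) and ran from 91.0 to 164 normalized counts (median 101.2) in sham-operated rats and from 35.1 to 83.3 (59.4) in TBI rats in the thalamus (-0.90, SE 0.20, limma adjusted p = 0.00264), where the groups did not overlap. The highest sham thalamus, rat 26, held 164 normalized counts, and the others 91.0 to 110.4. Thalamic Kcns1 ran from 61.1 to 217 normalized counts (median 136) in sham-operated rats and from 47.5 to 79.4 (51.1) in TBI rats, with a change of -1.14 (SE 0.30, limma adjusted p = 0.0089) that lost its call without the choroid-rich libraries (-1.05). Kcnf1 fell in both regions (-0.32 and -0.65), and Kcng1, Kcng3 and Kcng4 passed in neither. Kcng2 and Kcnv1 passed in the cortex (-0.47 and -0.49) and not in the thalamus (-0.05 and -0.47), and the interaction passed for neither (limma adjusted p = 0.142 and 0.987). The cortical call of Kcnv1 was lost in 1 fit of all 24 libraries.

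All 3 Kcnab genes, which encode the cytoplasmic beta subunits of Kv1 channels, fell in both regions. Kcnab3 ran from 2431 to 2760.2 normalized counts (median 2584) in sham-operated rats and from 1216 to 2236 (1804) in TBI rats in the cortex (-0.61, SE 0.12, limma adjusted p = 0.00165) and ran from 2565 to 3439.7 normalized counts (median 3075) in sham-operated rats and from 1045 to 1529 (1288) in TBI rats in the thalamus (-1.24, SE 0.09, limma adjusted p = 5.02e-07). No TBI rat reached the sham range in either region. Kcnab2, the most general of the beta subunits in brain, ran from 25666 to 31159 normalized counts (median 29242) in sham-operated rats and from 20354 to 26626 (24259) in TBI rats in the cortex and ran from 19319 to 24539.7 normalized counts (median 21592) in sham-operated rats and from 9107 to 12346 (11173) in TBI rats in the thalamus. All TBI thalami lay well below all sham thalami (-0.98, SE 0.08, limma adjusted p = 9.95e-07). In the cortex 5 of 6 TBI rats lay below the sham range (-0.26, SE 0.06, limma adjusted p = 0.00697), and without the choroid-rich libraries the change of -0.20 did not pass. Kcnab1 fell by 0.25 and 0.64 on the log2 scale, and the cortical call was lost under upper quartile scaling (-0.19), without the choroid-rich libraries (-0.26) and without sham rat 38 (-0.23).

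Kcnip genes encode calcium-binding proteins that attach to Kv4 pores. Kcnip2 ran from 1076 to 1526 normalized counts (median 1201) in sham-operated rats and from 816 to 1062 (888) in TBI rats in the thalamus (-0.43, SE 0.09, limma adjusted p = 0.00222, without overlap) and fell by 0.37 in the cortex. Kcnip4 ran from 7043 to 9883 normalized counts (median 8048) in sham-operated rats and from 4198 to 6149 (5794) in TBI rats in the thalamus (-0.54, SE 0.10, limma adjusted p = 0.000641), also without overlap, and the lowest of the TBI rats was rat 45. It fell by 0.41 in the cortex. Kcnip1 and Kcnip3 passed in neither region. Of the Kcne genes, small single-pass subunits, Kcne3 fell in both regions (-0.28 and -0.36). Kcne3 is annotated with loci over the same span on both strands, so its counts depend on the strand assignment of the authors. Kcne4 ran from 89.3 to 108 normalized counts (median 102) in sham-operated rats and from 112 to 178 (137) in TBI rats in the cortex and rose without overlap (0.50, SE 0.12, limma adjusted p = 0.00557), a call that just missed the threshold without the choroid-rich libraries (0.43, limma adjusted p = 0.0502). In the thalamus the change of Kcne4 was -0.06 (SE 0.18, limma adjusted p = 0.839).

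Kcne2, a subunit abundant in the choroid plexus, went with the choroid plexus markers of a library. It ran from 26.7 to 684 normalized counts (median 44.6) in sham-operated rats and from 56.2 to 1746 (67.4) in TBI rats in the thalamus, where TBI rat 45 held 1746 normalized counts and the other TBI rats 56.2 to 74.8. The summed markers of the choroid plexus ran from 692 to 110711 normalized counts in sham thalamus and from 840 to 270141 in TBI thalamus, with rat 45 highest. The log2 change of Kcne2 was 0.31 (SE 0.94, limma adjusted p = 0.829), turned to -0.48 without TBI rat 45 and to -0.03 without sham rat 55, and stood at 0.76 (limma adjusted p = 0.0110) without the 3 choroid-rich libraries. In the cortex it was -0.10 (SE 0.31, limma adjusted p = 0.84) and became 0.12 without sham rat 26, 0.01 without TBI rat 24 and 0.04 without the choroid-rich libraries. No direction was therefore assigned to Kcne2.

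**Figure D3:**
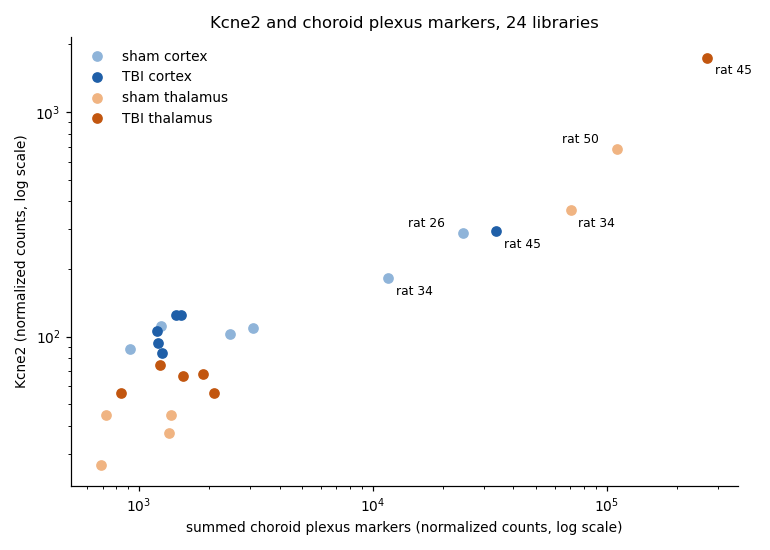
Kcne2 (vertical axis, normalized counts, log scale) is plotted against the summed choroid plexus markers (horizontal axis, normalized counts, log scale) in each of 24 libraries, colored by group. The 6 labelled libraries with the highest marker sums also hold the 6 highest Kcne2 values, up to 1746 in TBI thalamus of rat 45.

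Of the calcium- and sodium-activated channels, Kcnn4, the intermediate-conductance channel of microglia and other immune cells, had the largest rise of the thalamus. It ran from 14.3 to 20.7 normalized counts (median 16.1) in sham-operated rats and from 68.1 to 196 (120.0) in TBI rats, so the lowest TBI rat lay far above the highest sham, and the log2 change was 2.72 (SE 0.21, limma adjusted p = 6.73e-07). In the cortex it ran from 13.4 to 39.7 normalized counts (median 27.7) in sham-operated rats and from 38.1 to 89.2 (50.8) in TBI rats, with 5 of 6 TBI rats above the sham range and rat 45 highest (1.02, SE 0.25, limma adjusted p = 0.00606). Microglial markers rose beside it, with a median log2 change of 0.69 in the cortex and 1.02 in the thalamus and a summed level of 18429 to 23930 in sham thalamus and 37371 to 48120 in TBI thalamus. Their part in the rise of Kcnn4 was not tested.

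Small-conductance channels open on calcium entry and contribute to the afterhyperpolarization that follows action potentials. Kcnn2 ran from 989 to 1147 normalized counts (median 1054) in sham-operated rats and from 737 to 983 (831) in TBI rats in the cortex, without overlap (-0.33, SE 0.07, limma adjusted p = 0.00205), and ran from 684 to 865 normalized counts (median 759.8) in sham-operated rats and from 711 to 840.1 (773) in TBI rats in the thalamus, where the groups covered the same range and the change of 0.02 turned negative, at most to -0.02, without sham rat 26, TBI rat 56, TBI rat 63 or the choroid-rich libraries. Kcnn3 ran from 391 to 465 normalized counts (median 416) in sham-operated rats and from 429 to 781 (546) in TBI rats in the cortex and rose (0.43, SE 0.13, limma adjusted p = 0.02), with 4 of 6 TBI rats above the sham range, but did not pass without the choroid-rich libraries (0.38). Thalamic Kcnn3 had a change of -0.16 (SE 0.07, limma adjusted p = 0.105). Kcnn1 fell in both regions (-0.33 and -0.64).

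Kcnma1, the large-conductance BK pore, ran from 9931 to 12522 normalized counts (median 11476) in sham-operated rats and from 7152 to 9499 (8718) in TBI rats in the cortex, without overlap (-0.40, SE 0.07, limma adjusted p = 0.00078). Its thalamic change was -0.26 (SE 0.11, limma adjusted p = 0.092), and it passed without sham rat 32 or 34 and in 1 fit of all libraries (-0.32, -0.31 and -0.26). Kcnmb4, the beta subunit of neuronal BK channels, ran from 1704 to 2189 normalized counts (median 1841) in sham-operated rats and from 1218 to 1516 (1322) in TBI rats in the thalamus, without overlap (-0.49, SE 0.07, limma adjusted p = 0.000158), and had a cortical change of -0.13 (SE 0.06, limma adjusted p = 0.133). Kcnmb2 fell by 0.45 in each region, and Kcnmb1, the beta subunit of vascular muscle, passed in neither. Kcnt1, the sodium-activated pore Slack, ran from 1566 to 1793 normalized counts (median 1595) in sham-operated rats and from 1133 to 1363 (1282) in TBI rats in the thalamus, without overlap (-0.36, SE 0.06, limma adjusted p = 0.000246), against 0.06 (SE 0.08, limma adjusted p = 0.631) in the cortex. Its relative Kcnt2 passed in the cortex (-0.34) and not in the thalamus (0.17), with an interaction that did not pass (limma adjusted p = 0.0729), and the cortical call was lost under upper quartile scaling (-0.28) and without the choroid-rich libraries (-0.35).

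Of the inward rectifiers, Kcnj10 and Kcnj16 encode partners in one channel, the glial channel that clears potassium from around active neurons, and their transcripts went apart in the cortex. Kcnj16 ran from 226 to 381 normalized counts (median 249) in sham-operated rats and from 522 to 859 (579) in TBI rats in the cortex, so all TBI rats lay above all sham-operated rats and the rise was 1.21 (SE 0.13, limma adjusted p = 2.55e-05). Rat 38 was the highest sham and rat 45 the highest TBI rat. Kcnj10 ran from 12956 to 15298 normalized counts (median 13677) in sham-operated rats and from 8967 to 11946 (10326) in TBI rats in the same libraries and fell without overlap (-0.42, SE 0.07, limma adjusted p = 0.000694). In the thalamus Kcnj10 ran from 15579.5 to 17129 normalized counts (median 16606) in sham-operated rats and from 12285 to 15770.5 (14132) in TBI rats (-0.23, SE 0.06, limma adjusted p = 0.00699) and Kcnj16 ran from 4122 to 4713 normalized counts (median 4446) in sham-operated rats and from 3826 to 4417 (4077) in TBI rats (-0.12, SE 0.05, limma adjusted p = 0.0655). Without sham rat 26 or TBI rat 56 the thalamic change of Kcnj16 passed as a fall (-0.14 in each case). Of 9 astrocyte markers 5 rose and 2 fell in the cortex, among them Gfap at 2.26, Aqp4 at 0.68 and Slc1a2 at -0.21, and 5 rose in the thalamus, and their part in the changes of Kcnj10 and Kcnj16 was not tested.

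The promoters of this glial pair are printed, as GRCr8 windows of RefSeq like those above, to set side by side the upstream sequences of partners that went apart. Kcnj10 lies at chr13:87334260-87334559 (+ strand) and Kcnj16 at chr10:96517074-96517373 (+ strand), and GC boxes, CCAAT boxes and matches to the AP-1 motif TGANTCA of either strand are in capitals.
Kcnj10: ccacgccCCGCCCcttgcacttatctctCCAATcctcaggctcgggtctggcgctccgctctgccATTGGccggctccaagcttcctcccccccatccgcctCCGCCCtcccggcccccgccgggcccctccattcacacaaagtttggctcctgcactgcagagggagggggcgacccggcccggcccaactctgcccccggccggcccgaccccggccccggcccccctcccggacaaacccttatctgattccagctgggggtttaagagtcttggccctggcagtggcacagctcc
Kcnj16: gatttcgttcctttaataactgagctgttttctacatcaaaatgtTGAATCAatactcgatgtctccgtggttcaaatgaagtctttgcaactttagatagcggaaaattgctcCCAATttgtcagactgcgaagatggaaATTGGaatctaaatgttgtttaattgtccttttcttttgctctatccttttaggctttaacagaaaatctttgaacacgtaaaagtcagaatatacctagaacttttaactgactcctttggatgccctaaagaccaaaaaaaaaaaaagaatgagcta
The Kcnj10 window held 2 GC boxes, 2 CCAAT boxes and 20 CG dinucleotides. The Kcnj16 window held 0 GC boxes, 2 CCAAT boxes, 1 AP-1 match and 6 CG dinucleotides. RefSeq windows were matched by symbol for 61 of the 91 members, 55 of them with a single window. A GC box stood in 29 of these 55 windows (52.7%) and in 33.1% of all 33469 windows, a CCAAT box in 23.6% and 37.5%, the TATA box TATAAA in 0 and 14.2%, the cAMP response element TGACGTCA in 0 and 1.83%, and the AP-1 motif in 3.64% and 7.33%. The set of all windows was not limited to genes with a single window, so the 2 sets are not alike. Among the 18 single windows of members that fell in both regions 10 held a GC box. A match is a description of these letters and no evidence of binding.

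Kcnj11, the pore of the ATP-sensitive channel of neurons, ran from 1777 to 2147 normalized counts (median 1994) in sham-operated rats and from 1362 to 1715 (1591) in TBI rats in the cortex (-0.34, SE 0.06, limma adjusted p = 0.00113) and ran from 1466 to 1739 normalized counts (median 1608) in sham-operated rats and from 869.7 to 1199 (1077) in TBI rats in the thalamus (-0.61, SE 0.07, limma adjusted p = 3.28e-05). Neither region showed an overlap. Kcnj8, the ATP-sensitive pore of pericytes and vascular muscle, instead rose in the thalamus. It ran from 262 to 393 normalized counts (median 330.4) in sham-operated rats and from 343 to 527 (422) in TBI rats, with 5 of 6 TBI rats above the sham range (0.38, SE 0.12, limma adjusted p = 0.0264), and the call was lost without any of sham rats 26, 38 and 55 or TBI rats 24 and 63 (0.36, 0.32, 0.33, 0.31 and 0.36). Of 6 markers of mural cells 5 rose in the thalamus, with a median of 0.36, and 4 in the cortex, where Kcnj8 had a change of 0.16 (SE 0.13, limma adjusted p = 0.387). The part of these cells in the rise of Kcnj8 was not tested.

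Girk channels are opened by G proteins behind inhibitory receptors, and 3 of the 4 genes of this class fell in both regions. Kcnj3 ran from 3608 to 5102 normalized counts (median 4145) in sham-operated rats and from 2517 to 3179 (2652) in TBI rats in the thalamus (-0.59, SE 0.09, limma adjusted p = 0.000241, without overlap) and ran from 5542 to 7441 normalized counts (median 6270.1) in sham-operated rats and from 3448 to 5557 (4879) in TBI rats in the cortex (-0.48, SE 0.11, limma adjusted p = 0.00432). Kcnj9 fell without overlap in both regions, by 0.39 and 0.66 on the log2 scale. Kcnj6 fell by 0.28 and 0.47, the former lost in 1 fit of all 24 libraries, and Kcnj5, the fourth, passed in neither. Kcnj9 and Kcnj10 are neighbours 13511 bases apart and both fell in both regions. Kcnj16 and its neighbour Kcnj2, 37339 bases apart, differed in the cortex, where Kcnj2 had a change of -0.20 (SE 0.10, limma adjusted p = 0.15). In the thalamus the change of Kcnj2 was 0.23 (SE 0.09, limma adjusted p = 0.0599). It passed under upper quartile scaling, with edgeR, without the choroid-rich libraries and without sham rat 34, TBI rat 45 or TBI rat 52.

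Kcnj4, a strong inward rectifier of forebrain neurons, ran from 315 to 889.7 normalized counts (median 419) in sham-operated rats and from 152 to 290.3 (217) in TBI rats in the thalamus and fell without overlap (-1.07, SE 0.21, limma adjusted p = 0.00149). Sham rat 26 held 889.7 normalized counts and the other sham thalami 315 to 428. In the cortex its change was -0.19 (SE 0.08, limma adjusted p = 0.0898), which passed without TBI rat 24 (-0.25). Kcnj4, Kcnh3, Kcns1 and Kcns3 were all far higher in sham cortex than in sham thalamus, and 3 of the 6 tested cortical identity genes fell in the thalamus, with Slc17a7 at -1.05 and Neurod6 at -0.06. Their sum ran from 12928 to 21004 in sham thalamus, with rat 26 lowest, and from 8926 to 12217 in TBI thalamus. Kcnh1, Kcng1 and Kcnv1, also far higher in sham cortex, did not pass in the thalamus (0.09, -0.17 and -0.47). Whether the share of cortical tissue or axons in the dissections bears on any of these genes was not tested. Kcnj12, another strong inward rectifier, passed in the thalamus (-0.37) and not in the cortex (-0.23), with an interaction that did not pass (limma adjusted p = 0.582), and Kcnj14 passed in neither region.

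Two-pore channels gave the largest rise of the cortex, on few counts. Kcnk16, known from pancreas, ran from 0 to 6.00 normalized counts (median 4.21) in sham-operated rats and from 10.7 to 22.1 (18.0) in TBI rats in the cortex, without overlap (2.24, SE 0.45, limma adjusted p = 0.0022), and the fitted change was 1.40 with a pseudocount of 5. The sham values rest on very few fragments, with 3 of 6 libraries at or under 3. Without any of TBI rats 22, 24, 45 or 56 the gene fell under the minimum mean and was not tested. In the thalamus it ran from 25.2 to 105 normalized counts (median 49.3) in sham-operated rats and from 48.8 to 94.95 (63.4) in TBI rats (0.43, SE 0.31, limma adjusted p = 0.309). Its neighbour Kcnk5, 71922 bases away, passed in neither region, nor did the mechanically gated Kcnk4 and Kcnk10.

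Of the 12 two-pore genes tested, 6 fell and 1 rose in the cortex, where 14.9% of all tested loci fell and 14.3% rose. In the thalamus 4 fell and 1 rose, where 20.9% of all tested loci fell and 14.5% rose. Kcnk3, the acid-sensitive Task1, ran from 614 to 742 normalized counts (median 659.7) in sham-operated rats and from 459 to 569 (541) in TBI rats in the cortex, without overlap (-0.37, SE 0.07, limma adjusted p = 0.00165), and fell by 0.39 in the thalamus. Kcnk2, the mechanically gated Trek1, and Kcnk15 passed in the cortex (-0.18 and -0.22) and not in the thalamus (-0.21 and -0.12), and the interaction passed for neither (limma adjusted p = 0.916 and 0.512). The cortical call of Kcnk2 was lost in 15 of 21 alternatives, among them upper quartile scaling (-0.12) and the omission of any library except that of sham rat 32 (-0.15 to -0.20), and that of Kcnk15 under upper quartile scaling (-0.16) and without the choroid-rich libraries (-0.19). Kcnk9, or Task3, fell by 0.27 and 0.47 with 5 of 6 TBI rats below the sham range in each region. Kcnk1, or Twik1, ran from 3859 to 4814 normalized counts (median 4389) in sham-operated rats and from 2823 to 3259.5 (2936) in TBI rats in the thalamus, without overlap (-0.55, SE 0.06, limma adjusted p = 7.67e-06). Its cortical fall (-0.25, SE 0.08, limma adjusted p = 0.0387) did not survive 13 of 21 alternatives, among them edgeR (-0.23), upper quartile scaling (-0.18) and the omission of any of sham rats 26, 32, 38, 50 and 55 or TBI rats 22, 24, 52 and 56 (-0.19 to -0.25). Kcnk12, a silent two-pore subunit also called Thik2, ran from 398 to 589 normalized counts (median 508) in sham-operated rats and from 284 to 399 (351) in TBI rats in the cortex (-0.51, SE 0.10, limma adjusted p = 0.00166) and ran from 443 to 604 normalized counts (median 543) in sham-operated rats and from 227 to 382 (322) in TBI rats in the thalamus (-0.75, SE 0.13, limma adjusted p = 0.000407). Kcnk6, or Twik2, rose in the thalamus (0.75, SE 0.20, limma adjusted p = 0.0105), where it ran from 23.7 to 56.3 normalized counts (median 35.8) in sham-operated rats and from 44.1 to 78.1 (60.6) in TBI rats, but not without the choroid-rich libraries (0.65, limma adjusted p = 0.0679). Kcnk13, a leak channel of microglia, had changes of 0.30 (SE 0.13, limma adjusted p = 0.0943) and 0.25 (SE 0.12, limma adjusted p = 0.144), and the cortical one passed under upper quartile scaling and without sham rat 55 (0.36 and 0.37).

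The effect of TBI was then compared between the regions as an interaction over all 24 libraries, thalamic change minus cortical change. Of 81 members tested, 3 were more positive in the thalamus and 11 more negative, where 2.72% and 4.54% of all 15678 loci passed in these directions. Kcnn4 stood highest (1.69, SE 0.33, limma adjusted p = 0.00273), and Kcnn2 (0.35, SE 0.09, limma adjusted p = 0.0229) and Kcns2 (0.33, SE 0.09, limma adjusted p = 0.0278), which fell in the cortex, followed. The lowest that passed was Kcnj16 (-1.33, SE 0.15, limma adjusted p = 4.27e-06), whose rise was in the cortex. Among the others of the 11 were Kcnj4 (-0.88, SE 0.24, limma adjusted p = 0.0249), Kcnab2 (-0.71, SE 0.11, limma adjusted p = 0.000179), Kcnab3, Kcnh2, Kcnc1, Kcnt1, Kcnmb4 and Kcnn3. For Kcnk16 (-1.81, limma adjusted p = 0.0519) and Kcnh3 (-1.28) the difference did not pass.

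Both regions of a rat came from the same animal, and with the rat as a block 21 members passed the interaction, 4 more positive and 17 more negative in the thalamus. All 14 stayed, and Kcna3, Kcnab1, Kcnd3, Kcnj9, Kcnj11 and Kcnk1 were among those added. Of the 3 positive calls 1 was left without rat 24 or without rat 56, and there were 5 without rat 63. Kcnn2 lost its call without rats 24, 34, 55 or 56 (0.31 to 0.35), Kcns2 without rats 22, 24, 26 or 56 (0.29 to 0.32) and Kcnj4 without rats 24, 45 or 50 (-0.77 to -0.88). Kcnmb4 lost it without rats 24, 50, 55 or 56 (-0.32 to -0.35), Kcnn3 without rats 38, 50 or 55 (-0.53 to -0.57), Kcnt1 without rat 24 (-0.35) and Kcnab3 without rat 56 (-0.57).

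The 2 regions differed in their channel genes without injury as well. In sham-operated rats 31 of 82 members were higher in the thalamus and 37 higher in the cortex, where 33.9% and 28.3% of 15582 loci passed. The highest differences, thalamus minus cortex on the log2 scale, were Kcnj16 (4.08, SE 0.10, limma adjusted p = 2.77e-14), Kcnk16 (3.74, SE 0.49, limma adjusted p = 6.38e-06), Kcnn3 (2.77, SE 0.07, limma adjusted p = 3.09e-14) and Kcnc2 (2.48, SE 0.08, limma adjusted p = 8.7e-13). Sham thalamus held 4122 to 4713 normalized counts of Kcnj16 and 25364 to 36597 of Kcnc2, and sham cortex 226 to 381 and 4732 to 5581. The lowest were Kcnv1 (-6.68, SE 0.33, limma adjusted p = 8.42e-11), Kcnh3 (-6.07, SE 0.34, limma adjusted p = 3.69e-10), Kcnh1 (-4.47, SE 0.12, limma adjusted p = 4.29e-14) and Kcng1 (-3.62, SE 0.27, limma adjusted p = 9.31e-09). Sham cortex held 3499 to 4737 normalized counts of Kcnv1 and 4177 to 6576 of Kcnh3, and sham thalamus 18.8 to 99.3 and 39.6 to 224.

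By role, 8 of 9 electrically silent subunits were higher in the cortex, against 28.3% of all tested loci. Their median was -2.64, and Kcng4 was the exception at 1.39. The 3 Kv4 pores were all higher in the thalamus (0.32 to 1.24). Kcna1 and Kcnn4 passed here (0.29 and -0.56) and did not with the rat as a block. The median over all members was -0.17 and over all loci 0.03.

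**Figure D4:**
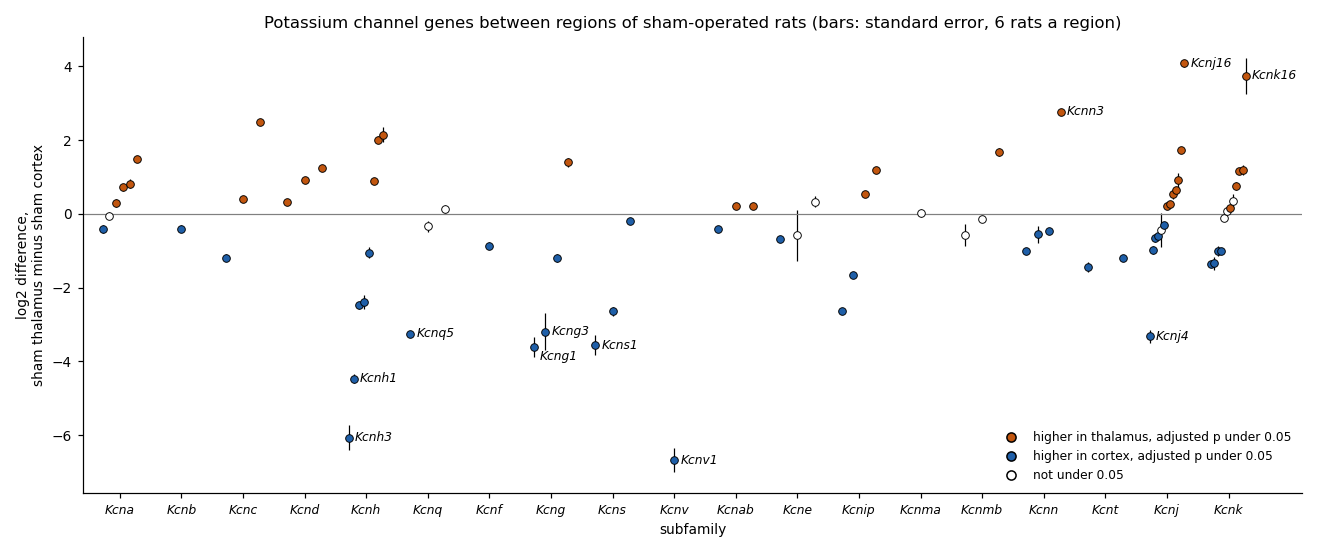
The log2 difference between sham thalamus and sham cortex (vertical axis, thalamus minus cortex) is plotted for the tested members that are reported by name, by subfamily, with bars for the standard error and colors for genes that passed the test. Kcnj16, at 4.08, and Kcnk16 lie highest, and Kcnv1, at -6.68, and Kcnh3 lie lowest.

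The proteins that assemble with these channels were listed separately, and 18 of 22 such genes could be tested. In the cortex 10 fell and 0 rose, with a median log2 change of -0.17, where 14.9% of all tested loci fell and 14.3% rose. In the thalamus 12 fell and 0 rose (-0.33), where 20.9% of all tested loci fell and 14.5% rose. The medians of all tested loci were -0.01 and -0.02. The genes named next were picked from those that fell in 1 or both regions. Adam23, a membrane partner of the Lgi1 complex at Kv1 channels, fell by 0.58 and 0.69 on the log2 scale (limma adjusted p = 2.68e-05 and 0.000114), and Lgi1 itself by 0.41 and 0.30. Dpp6, the transmembrane partner of Kv4 pores, fell by 0.16 and 0.46. Amigo1, which joins Kv2 pores, fell by 0.23 and 0.33. Abcc8, the sulfonylurea receptor that pairs with Kcnj11, fell in the thalamus (-0.57, limma adjusted p = 1.01e-05) and did not pass in the cortex (-0.15).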

How the data were processed

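Polyadenylated RNA was sequenced from 24 libraries, 2 regions of 6 TBI and 6 sham-operated rats. Per the labels and the study's methods, the authors prepared stranded libraries, aligned reads with TopHat2 2.0.11 and Bowtie2 2.2.2 and assembled transcripts with Cufflinks 2.2.1. The study's methods name RGSC3.4 as genome and Rnor_5.0 as annotation. The labels give Rnor_5.0 as the genome build, and the files state no build for their positions. The authors deposited 1 table of normalized counts per locus, a signal made by scaling fragment counts with 1 size factor per library. Between 99.97% and 99.98% of values were whole multiples of the value of 1 fragment (tolerance 0.1 fragments), which gave back the depth and fragments for the edgeR alternative. Loci without a name (1.90% to 2.23% of a library) were left out of the tests, and a floor of 3 fragments covers counting error only.

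Samples were grouped by their titles, and rat numbers were read from the same labels. Tests used limma 3.58.1 in R 4.3.3 (lmFit, eBayes with trend) on log2(normalized count + 1), a minimum mean of 10 in the libraries compared and Benjamini-Hochberg adjustment over all tested loci at 0.05. Whether TBI acted alike in both regions was tested as an interaction. Both regions came from the same rats, and a rat's 2 libraries deviated together with a median correlation of 0.187 (0.00393 to 0.569), 10 of 12 rats over 0.1. The rat as a block was an alternative. Other alternatives were TMM and upper quartile scaling, no filter, a minimum mean of 50, pseudocounts of 0.1 and 5, edgeR 4.0.16 on recovered fragments, all 24 libraries in 1 fit, a threshold of 0.01 and leaving out each library, and, chosen after seeing the data, leaving out the choroid-rich libraries. Tested on simulated data with 6 to 10 false calls among 15358 to 15476 loci, limma recovered 97% to 99% of changes of 1 and 78% to 94% of changes of 0.6 on the log2 scale. These changes were placed only in loci with a sham mean of at least 50, so recovery at fewer counts was not tested. Each simulated library was drawn independently from the means of 1 sham group, without pairing of a rat's libraries or a difference between regions beyond the changes placed.

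Named genes were, per region, the 6 largest rises and 8 largest falls with separated groups, the 4 members with the largest interactions and the 4 with the largest sham differences, each way, and a list of well-known channels. Others were named after their values were seen. Some members are not reported here by name or plotted, and stay in the counts. Members, gene lists and tests were chosen with earlier results of these data known. Tables were read with pandas 2.3.3 and figures drawn with matplotlib 3.10.9 in Python 3.11.15. Promoters are RefSeq sequences of GRCr8.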

Additional observations from a re-analysis of the deposited data

Results flagged for a closer look

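Single rats stood apart from the other 5 of their group in 13 of 192 groups of values, where chance gives about 9.6. In TBI rat 45 these were Kcne2, with 294 normalized counts in the cortex and 1746 in the thalamus, Kcnj16 (859) and Kcnn4 (89.2) in the cortex, and Kcnip4 in the thalamus, which was low at 4198. In the thalamus of sham rat 26 Kcng1 (123), Kcnj4 (889.7) and Kcns3 (164) were high, and in its cortex Kcnk6 was low at 76.4. The remaining values were Kcnj16 in the cortex (381) and Kcnt1 in the thalamus (1793) of sham rat 38, Kcnh3 in the cortex of TBI rat 24 (6151) and Kcns1 in the thalamus of TBI rat 63 (79.4).

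The effect of TBI differed between regions by the interaction for 14 members, most of them given here as thalamic minus cortical log2 change. It was more negative in the thalamus for Kcnj16 (-1.33), Kcnj4 (-0.88), Kcnab2 (-0.71), Kcnab3 (-0.64), Kcnh2 (-0.63), Kcnc1 (-0.60), Kcnn3 (-0.59), Kcnt1 (-0.42) and Kcnmb4 (-0.36). It was more positive for Kcnn4 (1.69), Kcnn2 (0.35) and Kcns2 (0.33).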

How the results depend on the processing

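Counts of called members mostly moved by less than 1.5 times. With any 1 library left out 43 to 48 members were called in the cortex and 43 to 50 in the thalamus, 65 to 68 differed between sham regions with any 1 rat left out, and 10 to 18 passed the interaction. The falls numbered 38 to 43 in the cortex and 40 to 45 in the thalamus, and the rises 4 to 6 and 3 to 6. Cortical rises numbered 3 at a mean of at least 50 and 3 without the choroid-rich libraries, where 27 falls and 30 calls in all were left. At a threshold of 0.01 there was 1 thalamic rise, and the interaction held 7 members, 1 more positive and 6 more negative in the thalamus. For the interaction edgeR gave 5 more positive members, the rat as a block 17 more negative ones (21 in all), and leaving out single rats 1 to 5 more positive ones. Among 102 results for single genes 72 kept their direction and side of the threshold in all alternatives. Direction turned for 3 results that had not passed. With single libraries left out cortical Kcne2 ran from -0.343 to 0.121, thalamic Kcne2 from -0.478 to 0.898 and thalamic Kcnn2 from -0.0156 to 0.0523. Without the choroid-rich libraries cortical Kcne2 was 0.0410 and thalamic Kcnn2 -0.00754. The cause was not tested, beyond the smaller number of samples where libraries were left out. No scaling moved the median of all loci by over 0.1. Upper quartile scaling moved it from -0.01 to 0.05 in the cortex and from -0.02 to 0.04 in the thalamus. Under that scaling 40 of the 48 cortical calls and 45 of the 47 thalamic calls stayed.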
